A study of Homo sapiens with 5 samples.

Results

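The zinc finger genes near the end of the long arm of chromosome 19 were followed in HEK293T cells given ascorbic acid. The group is 51 genes, found by symbol among the 28278 rows of a count table. The list was chosen on the fold changes between treated and control cells, which were already known, so those fold changes are given as a description, with no test of the group. HEK293T is an established line from human embryonic kidney that carries a viral large T antigen, and its messenger RNA was sequenced. The ascorbic acid group held 2 libraries of cells cultured with ascorbic acid, and the control group held 3 libraries of cells labelled WT. Cells of both groups were grown in the same serum-containing medium. The protocol text, the same for all 5 libraries, has cells seeded 24 h before treatment and the medium renewed every 6 h during it. It gives ascorbic acid for 24 h where DNA methylation was tested and for 36 h where RNA methylation was tested, leaves unstated which was used here, and gives no dose. They do not say that the libraries of a group came from separate cultures, so every p-value measures only the spread between the libraries, and that spread may be technical.

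Proteins of this family bind DNA through a row of C2H2 fingers, each folded around a zinc ion. Most members in this region also carry a KRAB domain, which binds the co-repressor TRIM28. TRIM28 brings the histone H3 lysine 9 methyltransferase SETDB1, HP1 proteins and the NuRD complex, and the bound region, often a transposable element, is silenced. The genes multiplied by tandem duplication, so neighbours resemble each other. Ascorbic acid is a cofactor of the TET enzymes and the JmjC demethylases, which remove DNA and histone methylation.

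The 51 genes lie between ZNF582 and ZNF446, at chr19:56375846-58481230 (GRCh38, GENCODE release 29), a span of 2105 kb. Of these genes 34 are on the plus strand and 17 on the minus strand. The widest gap, 565 kb, separates ZNF71 from ZNF264, with 7 genes before it and 44 after it. In the coding sequences, the pattern of a C2H2 finger occurred a median of 12 times per gene, with 2 in ZSCAN18, which belongs to the SCAN domain family, and 23 in ZNF814. A KRAB box pattern was found in 43 of the 51 genes (84.3%). It was not found in ZNF667, ZNF549, ZIK1, ZNF134, ZSCAN18, ZNF329, ZNF497 and ZNF446, and a missed pattern does not show that the domain is absent. Among the 465 other ZNF rows with a coding sequence, those whose symbol is ZNF followed by a number, the median was 10 fingers and 52.0% held the KRAB pattern. Coding sequences were aligned only among ZNF587, ZNF587B, ZNF417, ZNF814, ZNF324, ZNF324B, ZNF772 and ZNF773. The closest pairs there were ZNF587 and ZNF417, with 99.1% identical coding bases, and ZNF324 and ZNF324B, with 91.4%. ZNF587B shared 70.8% of coding bases with ZNF587.

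RefSeq promoter windows, 250 bases before to 50 bases after the annotated gene start on GRCh38.p14, were held for 46 of the 51 genes (51 windows). There was none for ZNF417, ZNF471, ZFP28, ZNF211 and ZNF552. Of the windows, 6 are printed, 5' to 3' on the gene's own strand. ZNF551, ZNF776, ZNF586 and ZNF587B are shown from among the genes that passed the test described with their values. The windows of ZNF543 and ZNF772, which also passed, are not printed. ZNF814 is shown because its window is nearly that of ZNF587B, and ZNF671 because the gene was almost silent. Capitals mark an ETS-type motif, a ZNF143-type motif and a YY1-type motif, on either strand. The windows are ZNF551 at chr19:57681727-57682026 (plus strand), ZNF776 at chr19:57746565-57746864 (plus), ZNF586 at chr19:57769426-57769725 (plus), ZNF587B at chr19:57830049-57830348 (plus), ZNF814 at chr19:57888988-57889287 (minus) and ZNF671 at chr19:57727575-57727874 (minus).
ZNF551: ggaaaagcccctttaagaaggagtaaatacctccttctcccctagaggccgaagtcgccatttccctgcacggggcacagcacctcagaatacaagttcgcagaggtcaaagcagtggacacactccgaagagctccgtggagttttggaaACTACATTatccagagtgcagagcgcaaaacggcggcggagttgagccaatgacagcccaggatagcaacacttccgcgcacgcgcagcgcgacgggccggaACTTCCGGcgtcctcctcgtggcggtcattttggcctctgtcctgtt
ZNF776: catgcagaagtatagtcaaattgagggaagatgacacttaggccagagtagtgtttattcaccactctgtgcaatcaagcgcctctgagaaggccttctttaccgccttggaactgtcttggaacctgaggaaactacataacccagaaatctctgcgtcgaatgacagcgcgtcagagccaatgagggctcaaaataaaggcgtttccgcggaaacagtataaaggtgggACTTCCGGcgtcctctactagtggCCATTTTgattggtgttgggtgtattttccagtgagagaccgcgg
ZNF586: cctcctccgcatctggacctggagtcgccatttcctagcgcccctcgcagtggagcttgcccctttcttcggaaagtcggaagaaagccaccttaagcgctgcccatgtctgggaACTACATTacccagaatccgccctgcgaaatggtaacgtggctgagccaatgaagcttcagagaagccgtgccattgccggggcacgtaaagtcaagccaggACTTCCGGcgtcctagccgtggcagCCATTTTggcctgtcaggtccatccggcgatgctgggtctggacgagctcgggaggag
ZNF587B: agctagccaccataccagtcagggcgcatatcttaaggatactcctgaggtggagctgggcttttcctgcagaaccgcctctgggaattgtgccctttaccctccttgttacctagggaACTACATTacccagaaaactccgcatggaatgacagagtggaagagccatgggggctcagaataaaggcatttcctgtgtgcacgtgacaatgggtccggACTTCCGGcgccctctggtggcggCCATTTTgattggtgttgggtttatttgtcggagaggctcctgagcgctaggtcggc
ZNF814: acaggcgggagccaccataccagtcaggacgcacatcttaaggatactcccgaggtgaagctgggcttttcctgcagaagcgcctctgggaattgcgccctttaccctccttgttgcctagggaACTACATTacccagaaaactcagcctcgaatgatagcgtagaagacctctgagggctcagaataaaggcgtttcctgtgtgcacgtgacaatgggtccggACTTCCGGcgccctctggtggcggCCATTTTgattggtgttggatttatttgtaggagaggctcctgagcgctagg
ZNF671: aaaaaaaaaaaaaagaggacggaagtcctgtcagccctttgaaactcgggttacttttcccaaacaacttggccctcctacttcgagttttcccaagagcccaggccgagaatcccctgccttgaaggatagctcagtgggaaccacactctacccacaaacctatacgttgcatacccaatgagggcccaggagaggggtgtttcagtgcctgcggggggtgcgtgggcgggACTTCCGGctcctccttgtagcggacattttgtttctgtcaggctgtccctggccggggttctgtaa

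The ETS-type motif was searched as CCGGAAGT and its reverse complement ACTTCCGG. It was present in 25 of the 46 genes with a window (54.3%), against 13.3% of 422 other ZNF rows, 7.14% of 15080 protein-coding genes and 4.95% of all 27305 genes with a window. In 23 of the 25 genes it stood as the reverse complement, with its first base at a median of -18 (interquartile range -31.5 to -11), where +1 is the first base of the gene. The ZNF143-type motif, searched as ACTACATT and AATGTAGT, was present in 17 genes (37.0%), against 7.58% of other ZNF rows, 1.32% of protein-coding genes and 1.23% of all genes. Outside the interval, 12.02% of the other ZNF rows on chromosome 19 and 3.93% of those on other chromosomes held it. It stood as written in 15 genes, at a median of -110.5. A second known spelling, ACTACAAT or ATTGTAGT, occurred in 0 of the 46 genes and in 2.37% of other ZNF rows. The YY1-type motif, searched as AANATGG and CCATNTT, was present in 13 genes (28.3%), against 17.3% of other ZNF rows and 18.7% of protein-coding genes. The spellings of the ZNF143-type and YY1-type motifs were settled after the members' windows had been read. No match of the 3 motifs overlapped another in these windows.

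All 3 motifs occurred together in ZNF550, ZNF586, ZNF587, ZNF587B and ZNF814. These are 5 of 46 genes (10.9%), against 1 of 422 other ZNF rows (0.237%) and 0.0663% of protein-coding genes. The protein-coding set, here and for the single motifs, includes the group's own genes, and so does the set of all genes. In ZNF586, ZNF587B and ZNF814 the order was the same, as the printed windows show: the ZNF143-type motif first, at -135, -131 and -126, then the ETS-type motif at -33, -31 and -26, then the YY1-type motif at -8, -7 and -2. ZNF587 and ZNF550, whose windows are not printed, had another order. There the YY1-type motif came first, at -143 and -127. The ZNF143-type motif followed at -117 and -68, and the ETS-type motif at -15 and 4. ZNF776 held the ETS-type motif at -19 and the YY1-type motif at 6. ZNF551 held the ZNF143-type motif at -99 and the ETS-type motif at 4, and ZNF671 held only the ETS-type motif, at -17. In ZNF772, whose window is not printed, only the ZNF143-type motif was found, at -87. The ZNF587B and ZNF814 windows were 91.0% identical and those of ZNF324 and ZNF324B 82.7%, so genes with a motif are not independent of each other. None of the 3 was found in 12 genes (26.1%), ZNF543 and ZNF304 among them, against 65.6% of other ZNF rows. A match describes the letters of a window and is neither a binding site nor a cause of a level.

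**Figure D1:**
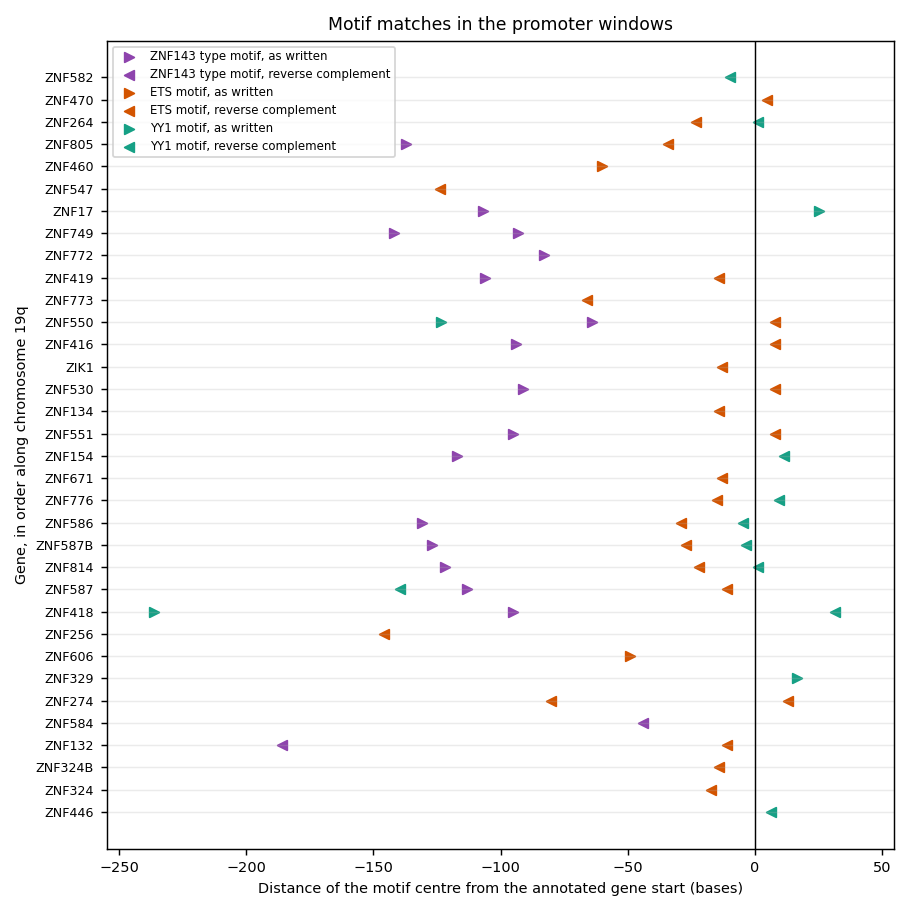
Matches of the 3 motifs in the promoter windows of the 34 genes with at least 1 match. The x axis is the distance of the motif's centre from the annotated gene start in bases, each row is a gene in order along 19q, colours are motifs, and right- and left-pointing triangles are the motif as written and its reverse complement. The ETS-type motif lies mostly just before the start as the reverse complement (median -18), and the ZNF143-type motif farther upstream (median -110.5).

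Among the other motifs searched, the CCAAT box (spelled CCAAT, with reverse complement ATTGG) was held by 67.4% of the 46 genes and 50.2% of other ZNF rows. The GC box (spelled GGGCGG, with reverse complement CCGCCC) was held by 65.2% and 67.3%. The E-box CACGTG occurred in 6 genes (13.0%) and 5.45% of other ZNF rows, and the cyclic AMP response element TGACGTCA in 3 genes (6.52%) and 4.27%. The NRF1 core (GCATGCGC or GCGCATGC) and the BANP core CTCGCGAG occurred in 0 of the 46 genes, against 7.35% and 1.18% of other ZNF rows. The windows of the group held a median of 23 CpG dinucleotides, against 22 in other ZNF rows, 21 in protein-coding genes and 14 in all genes.

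Total counts were 48015766 and 41739602 in the ascorbic acid libraries and 57212071, 38229722 and 35106664 in the control libraries. Of the genes counted 1 to 10 times in a library, 71.3 to 75.9% had an even count, a pattern that counting paired ends separately would give, so the counts understate their counting error. The line's marker genes NEFM, NEFL, VIM, PAX2 and LIN28B passed the filter on low counts, and NEFM was called higher. Markers of other cells stayed low: the 6 fibroblast markers summed to 0.289 and 0.678 counts-per-million (CPM) with ascorbic acid and 0.391, 0.211 and 0.231 CPM in controls. The T cell gene CD3E, the globin gene HBB, the liver gene AFP and the keratin gene KRT5 had no count in any library. The 4 hepatocyte and the 3 keratinocyte markers each summed to at most 0.187 CPM in every library. In bulk RNA, fewer expressing cells and less RNA per cell cannot be told apart.

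Together the 51 genes made up 505.5 and 502.8 CPM in the ascorbic acid libraries, against 577.7, 571.3 and 538.7 CPM in the control libraries. Both treated sums were below all 3 control sums. CPM is a gene's count relative to the library's total, expressed as counts-per-million, after the total has been scaled by its TMM factor, which corrects for differences in library composition. The 537 other ZNF rows summed to 9813 and 10152 CPM with ascorbic acid, against 10397, 10272 and 10057 CPM in controls, and there the groups overlapped. Of the 51 genes, 46 passed the filter on low counts and were tested with edgeR's quasi-likelihood test, adjusted by Benjamini-Hochberg over 15271 genes. Of these, 7 were lower with ascorbic acid at an adjusted p under 0.05 (15.2%), 0 were higher and 39 did not pass. Over all tested genes, 879 (5.76%) were called lower and 1303 (8.53%) higher, and with scaling by library totals alone 389 were called lower and 1712 higher. The group's median log2 fold change was -0.15 (interquartile range -0.22 to -0.10), and 43 of 46 values were below 0. The 3 above 0 were ZNF470 (0.10 ± 0.11, SE), ZNF446 (0.05 ± 0.11) and ZNF583 (0.04 ± 0.13). In 19 of the 46 genes (41.3%) both treated libraries were below all controls in CPM, against 20.4% of all tested genes, and in 0 were both above, against 22.6%. Since the same fold changes chose the group, none of these shares is evidence about it.

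**Figure D2:**
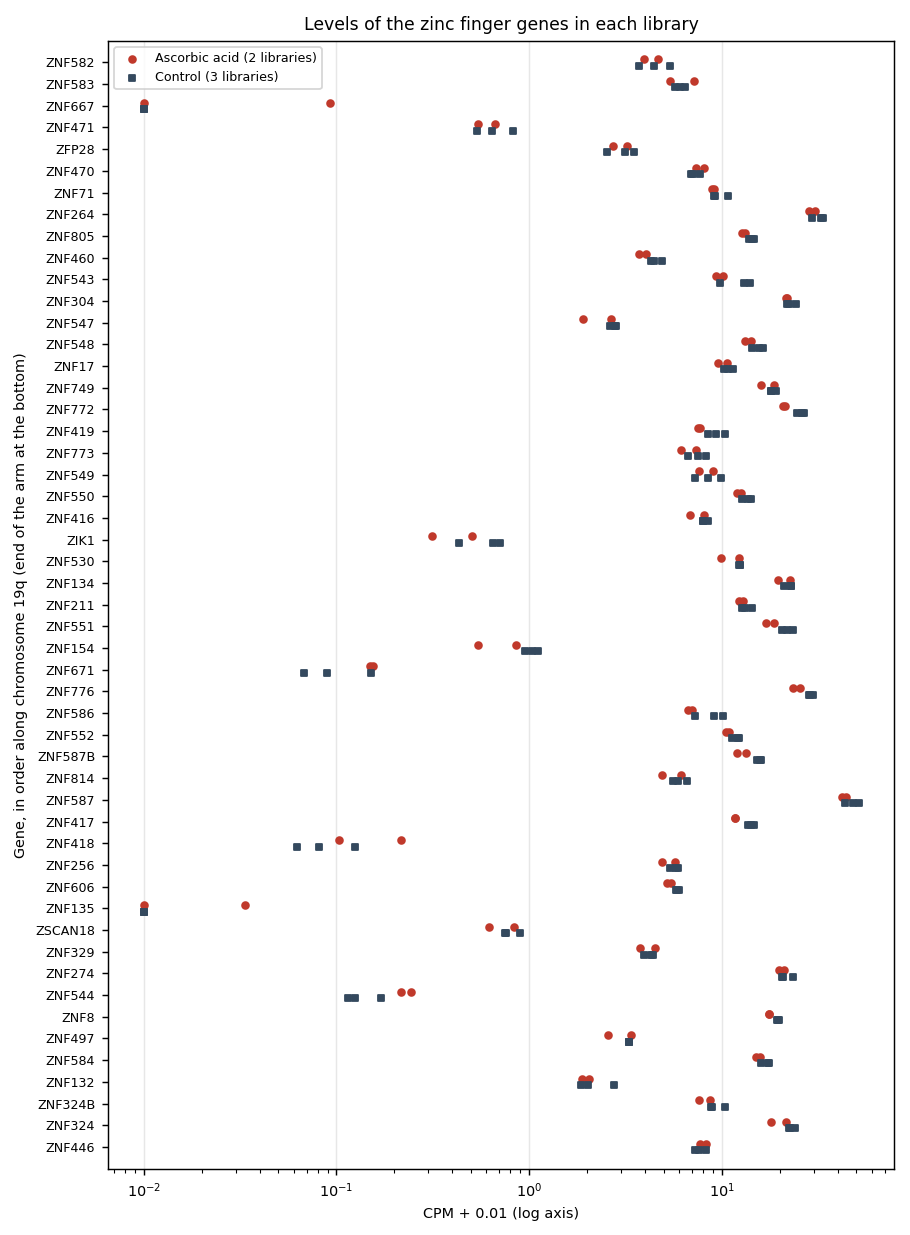
Level of each of the 51 genes in each library, in order along 19q. The x axis is CPM plus 0.01 on a log axis, circles are the 2 ascorbic acid libraries and squares the 3 control libraries. Levels run from 0 CPM for ZNF135 and ZNF667 in the controls to 51.3 CPM for ZNF587, and in most genes the circles lie at or to the left of the squares.

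The genes with an adjusted p under 0.05 were ZNF543, ZNF772, ZNF551, ZNF776, ZNF586, ZNF587B and ZNF417, in their order along the chromosome. All 7 lie beyond the 565 kb gap, between chr19:57320509 and 57916610, and all 7 hold the finger and KRAB patterns, with 8 fingers in ZNF586 to 15 in ZNF587B. ZNF772 (chr19:57466663-57477570) had 21.3 and 20.8 CPM with ascorbic acid, against 24.5, 26.8 and 26.2 CPM in controls. The groups did not overlap, and its log2 fold change was -0.29 ± 0.07 (SE). ZNF551 (chr19:57681969-57717301) had 17.0 and 18.7 CPM with ascorbic acid, against 23.4, 21.8 and 20.4 CPM in controls, a log2 fold change of -0.30 ± 0.08 without overlap. ZNF776 (chr19:57746796-57758159) had 25.4 and 23.4 CPM in treated libraries, against 29.7, 28.8 and 28.4 CPM in control libraries, with -0.25 ± 0.07 on the log2 scale. The treated values of ZNF776 both lay below the lowest control. ZNF587B (chr19:57819741-57846238) had 11.96 and 13.4 CPM with ascorbic acid, against 15.7, 15.2 and 15.9 CPM in controls. Its groups did not overlap either, and the log2 fold change was -0.30 ± 0.09.

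ZNF586 (chr19:57769655-57819939), the neighbour of ZNF587B, had 7.03 and 6.64 CPM with ascorbic acid, against 10.2, 9.08 and 7.28 CPM in controls. Control replicate 1 was highest and control replicate 3 close to the treated libraries, and the log2 fold change was -0.38 ± 0.12. ZNF543 (chr19:57320509-57330776) had 9.30 and 10.1 CPM with ascorbic acid, against 13.0, 14.1 and 9.82 CPM in controls. It was the 1 gene of the 7 whose groups overlapped, since control replicate 3 fell between the treated libraries, and its log2 fold change was -0.35 ± 0.11. ZNF417 (chr19:57900296-57916610), a repressor of endogenous retroviruses together with its near copy ZNF587, had 11.8 and 11.7 CPM in treated libraries, against 14.7, 14.1 and 13.6 CPM in controls. Its groups did not overlap, with -0.27 ± 0.09 on the log2 scale.

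Over 16 other settings of the comparison, ZNF772 was called lower in all 16. ZNF551, ZNF776 and ZNF587B were called in 14 each. ZNF551 and ZNF587B lost the call without ascorbic acid replicate 1 or without control replicate 1, and ZNF776 without ascorbic acid replicate 2 or without control replicate 1. ZNF586 was called in 9, ZNF543 in 8 and ZNF417 in 7 of the 16. Without control replicate 1 the count of genes called lower was 1 of 46 tested, ZNF772, beside 335 of 15153 over all tested genes. Without control replicate 2 it was 5 of 46, beside 535 of 15333. Without control replicate 3 it was 10 of 46, beside 768 of 15292. Without ascorbic acid replicate 1 or 2 the group's median log2 fold change was -0.17 and -0.18. ZNF419 (-0.31 ± 0.11), ZNF324 and ZNF587 did not pass in the comparison over all 5 libraries, and passed in 3, 3 and 2 of the 16 settings. The fitted values of the 7 genes stayed below 0 throughout, from -0.50 for ZNF586 to -0.20 for ZNF776.

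**Figure D3:**
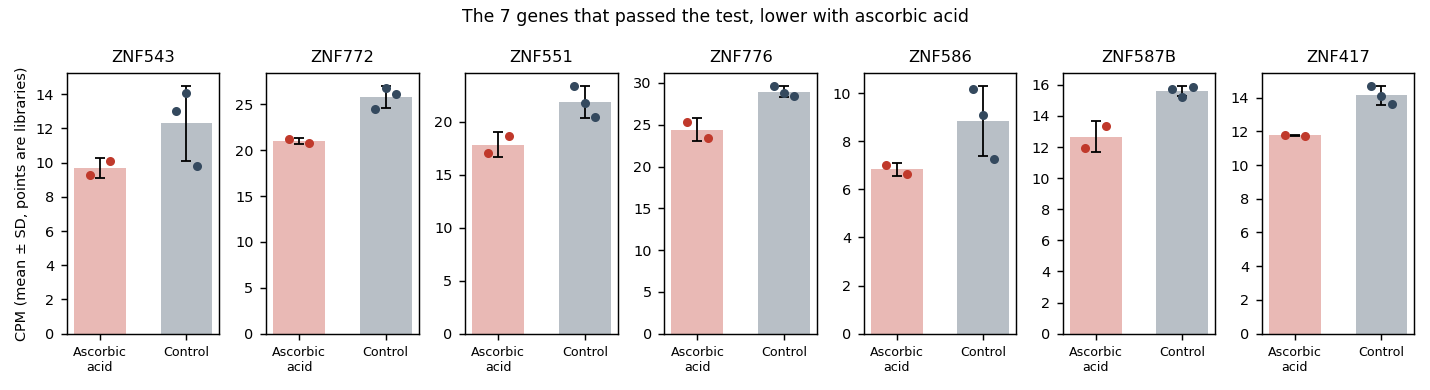
The 7 genes with an adjusted p under 0.05, in order along 19q. Bars are mean CPM from 0, error bars the SD, and points the libraries, with ascorbic acid (n = 2) to the left of control (n = 3) in each panel. Groups are apart in each panel except ZNF543, where a control library at 9.82 CPM lies between the treated libraries.

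The most abundant gene of the group was ZNF587 (chr19:57849857-57865112), with 42.1 and 44.1 CPM in ascorbic acid libraries, against 47.9, 51.3 and 43.8 CPM in controls. Control replicate 3 overlapped the treated libraries, and the log2 fold change was -0.15 ± 0.06. ZNF264 came next, with 28.5 and 30.6 CPM in treated libraries, against 32.8, 33.3 and 29.5 CPM in controls, and the groups overlapped (-0.11 ± 0.07). ZNF304 had 21.7 and 21.6 CPM with ascorbic acid, against 24.2, 22.2 and 21.9 CPM in controls. The 2 treated values were just below the lowest control, and ZNF304 had -0.08 ± 0.07 on the log2 scale. ZNF776 and ZNF772 completed the 5 highest by mean CPM. Per kilobase of exon, the highest levels over all libraries were those of ZNF587 (6.24 CPM per kb), ZNF749 (5.94), ZNF805 (5.46), ZNF776 (4.95) and ZNF304 (4.84). Over the group, 22 genes averaged at least 10 CPM, 35 at least 5 CPM, 42 at least 1 CPM and 9 under 1 CPM.

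ZNF274, which recruits SETDB1 to the far ends of zinc finger genes, had 21.1 and 19.7 CPM with ascorbic acid, against 23.3, 20.8 and 20.6 CPM in controls. The groups overlapped, and its log2 fold change was -0.08 ± 0.08. ZNF324 (chr19:58467045-58475436) had 21.5 and 18.0 CPM with ascorbic acid, against 24.0, 22.7 and 22.3 CPM in controls, and did not pass (-0.22 ± 0.08), although both treated libraries were lower than all controls. Its near copy ZNF324B had 8.70 and 7.60 CPM in treated libraries, against 8.81, 10.3 and 8.84 CPM in controls, with -0.19 ± 0.11 on the log2 scale. Here too the treated libraries were the lowest, by a small margin. ZNF814 had 6.10 and 4.91 CPM with ascorbic acid, against 6.57, 5.89 and 5.60 CPM in controls, an overlap (-0.13 ± 0.13).

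The other genes at 1 CPM or more had log2 fold changes from -0.27 to -0.01, except ZNF419 and the 3 above 0. ZNF547 had -0.27 ± 0.19, ZNF460 -0.22 ± 0.14, ZNF548 -0.18 ± 0.09 and ZNF132 -0.17 ± 0.21. ZNF8 and ZNF552 each had -0.16, with errors of 0.08 and 0.09. ZNF805, ZNF550, ZNF530 and ZNF773 each had -0.15, and ZNF497, ZNF584 and ZNF606 each had -0.14. ZNF416 and ZNF17 had -0.12, and ZNF71, ZNF582, ZNF211 and ZNF256 had -0.10. Closest to 0 were ZNF749 (-0.09), ZNF134 (-0.08), ZFP28 (-0.05), ZNF549 (-0.04) and ZNF329 (-0.01). None of these genes passed, and neighbours in this order differed by less than their SE.

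**Figure D4:**
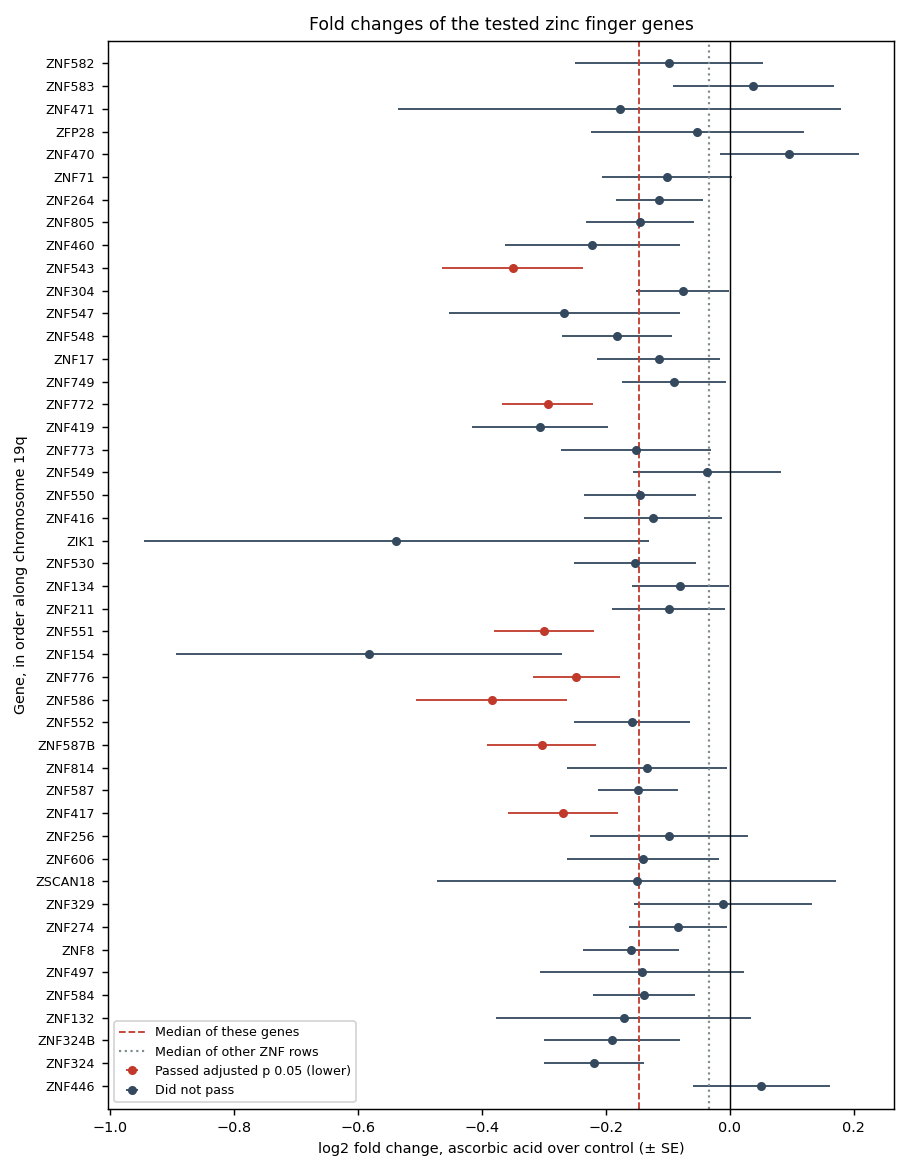
Log2 fold change, ascorbic acid over control, of the 46 tested genes in order along 19q. Points are fitted values with SE bars, red points have an adjusted p under 0.05, and the dashed and dotted lines are the medians of these genes (-0.15) and of other ZNF rows (-0.03). The 7 red points lie among the 40 tested genes beyond ZNF71, and 43 of 46 points lie left of 0.

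Before the widest gap, the 6 tested genes had a median log2 fold change of -0.08 and 0 calls. After it, the 40 tested genes had -0.15 and 7 calls, all lower. Of the tested genes on the plus strand 5 of 32 were called lower (median -0.15), and of those on the minus strand 2 of 14 (median -0.14). Genes with the ETS-type motif had a median of -0.15 and 4 calls among 24 tested, and those without it -0.12 and 2 among 17. Those medians were -0.15 (4 calls of 16) and -0.14 (2 of 25) with and without the ZNF143-type motif, and -0.14 (3 of 12) and -0.15 (3 of 29) with and without the YY1-type motif. The differences between these medians are small beside the SE of the single genes, and none was tested.

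Among the 9 genes under 1 CPM were several whose promoters are known to be methylated in tumours, such as ZNF154, ZNF471, ZNF671, ZNF135 and ZSCAN18. DNA methylation was not analysed here. ZNF154 had 0.536 and 0.842 CPM with ascorbic acid, against 1.03, 0.947 and 1.10 CPM in controls. Its groups did not overlap, but the error was wide (-0.58 ± 0.31) and it did not pass. ZIK1, the gene with the lowest level among those tested, had 0.495 and 0.304 CPM in treated libraries, against 0.639, 0.421 and 0.693 CPM in controls, with overlap (-0.54 ± 0.41). ZNF471 had 0.536 and 0.655 CPM with ascorbic acid, against 0.817, 0.526 and 0.635 CPM in controls (-0.18 ± 0.36). ZSCAN18 had 0.825 and 0.608 CPM in treated libraries, against 0.888, 0.737 and 0.751 CPM in controls (-0.15 ± 0.32). The groups overlapped for ZNF471 and ZSCAN18.

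Too few counts kept 5 genes out of the test. ZNF671 had 7 and 6 counts with ascorbic acid, against 8, 3 and 2 in controls, or 0.144 and 0.140 CPM against 0.142, 0.0789 and 0.0578 CPM. ZNF544 had 10 and 10 counts in treated libraries, against 9, 4 and 4 in controls, and was the 1 gene of the 5 whose treated libraries both lay above all controls in CPM. ZNF418 had 10 and 4 counts with ascorbic acid, against 4, 2 and 4 in controls. ZNF667 had 4 and 0 counts with ascorbic acid and ZNF135 had 0 and 1, against 0 in every control, where a count of 0 allows up to 3. The mean CPM of each of the 5 was higher with ascorbic acid, unlike most of the tested genes, but at these counts no difference is shown. The 8 genes under 1 CPM with a window held a median of 25.5 CpG in their richest window, and the 38 others held 22.5.

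Reads of similar or overlapping genes may be shared out in ways the sources used here do not state. Exons of ZNF587 overlapped those of ZNF814 on the opposite strand over 33.3% of their length, and 30.9% of its stretches of 100 bases also occur in other genes. For ZNF417 that share was 25.9%, and for ZNF587B 16.9%. ZNF324 and ZNF446 overlapped on the same strand over 25.1% and 28.8% of their exon lengths. The values of ZNF587, ZNF417, ZNF587B, ZNF814, ZNF324 and ZNF446 are therefore uncertain. The same holds for ZNF776, called lower, whose exons overlapped another gene on the same strand over 11.5% of their length. ZNF460, ZNF17, ZNF749, ZNF606, ZNF135, ZSCAN18, ZNF8 and ZNF497 also had more than 10% of overlap or shared sequence. In 36 of the 51 genes overlap and shared sequence were under 10%. Of these, 32 were tested, 4 were called lower (ZNF543, ZNF772, ZNF551 and ZNF586), the median log2 fold change was -0.15 and 30 were below 0.

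Other rows whose symbol is ZNF followed by a number, some of them non-coding RNAs, were read from the same comparison. Among the tested ones, 393 protein-coding rows had 20 called lower, 14 higher and a median log2 fold change of -0.04. Of 428 tested ZNF rows outside the group, 22 were called lower and 15 higher, with a median log2 fold change of -0.03 and 60.05% below 0. With scaling by library totals alone the balance turned, with 10 lower, 23 higher and a median of 0.0094, while the 19q genes had 4 lower, 0 higher and a median of -0.10. Those on chromosome 19 outside the interval had a median of -0.07, with 8 lower and 1 higher of 165. Those on other chromosomes had -0.02, with 14 lower and 14 higher of 257. The median of all tested genes was 0.00, with 49.2% below 0. By library, the 46 genes' median correction for GC content and length ran from -0.02 to 0.03 on the log2 scale. With these trends removed the group had a median of -0.13 and 8 genes called lower. The lower calls over all tested genes rose from 879 to 1470 in that setting.

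**Figure D5:**
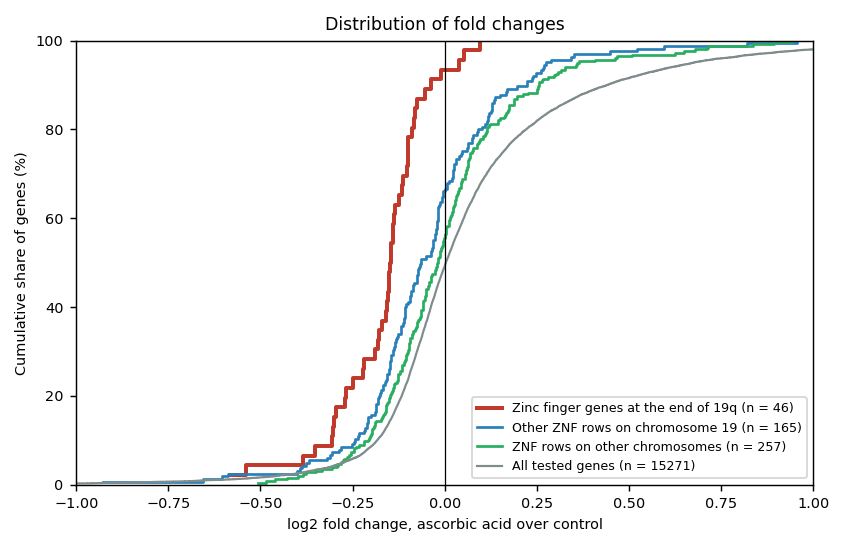
Cumulative share of genes (y axis, percent) against the log2 fold change, ascorbic acid over control (x axis, cut at -1 and 1). The lines are the 46 tested genes at the end of 19q, other ZNF rows on chromosome 19 outside the interval (n = 165), ZNF rows on other chromosomes (n = 257) and all 15271 tested genes. The first line lies to the left, with a median of -0.15 against -0.07, -0.02 and 0.00, in the contrast that chose these genes.

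Genes of the same interval outside the group, some of them zinc finger genes too, gave few values. Of 25 neighbours without a ZNF symbol, 8 were tested and 0 were called in the edgeR fit. Their median log2 fold change was -0.07, and 7 were below 0. Of 6 other ZNF rows inside the interval, 4 were tested and 0 called. These had a median of -0.28, with 3 below 0, at a median level of only 0.83 CPM. The SCAN domain gene ZSCAN22 had 6.78 and 9.59 CPM with ascorbic acid, against 8.83, 8.16 and 9.91 CPM in controls, an overlap (-0.13). In the 565 kb gap, the imprinted gene PEG3 and the genes ZIM2, ZIM3 and DUXA had no count in any library, and USP29 had 1 count in ascorbic acid replicate 2. ZIM3 encodes a KRAB zinc finger protein whose KRAB domain is a strong repressor.

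The partners through which KRAB zinc finger proteins act were read from a list of 38 co-repressor genes, all tested. Of these, 7 were higher (18.4%, against 8.53% of all tested genes), 4 were lower (10.5%, against 5.76%) and 27 did not pass, with a median log2 fold change of -0.04. TRIM28 itself, just beyond the interval at chr19:58544091-58550722, had 667 and 609 CPM with ascorbic acid, against 636, 656 and 712 CPM in controls, and did not pass (-0.07 ± 0.05, edgeR adjusted p = 0.409). SETDB1 had 110.1 and 106.6 CPM in treated libraries, against 101.9, 99.3 and 97.4 CPM in controls, and did not pass either (0.12 ± 0.05, edgeR adjusted p = 0.0940). ATF7IP, the partner of SETDB1, rose by 0.29 ± 0.05 (edgeR adjusted p = 0.000108), with 118.4 and 117.0 CPM against 97.7, 96.5 and 94.6 CPM in controls. The lysine 9 methyltransferase gene EHMT1 rose by 0.37 ± 0.05 (adjusted p = 4.74e-06) and the DNA methyltransferase gene DNMT3A by 0.31 ± 0.07 (0.00211). TASOR, a subunit of the HUSH complex that works with SETDB1, rose by 0.21 ± 0.05 (0.00397). Of the other HUSH subunits in the list, PPHLN1 was called lower (-0.16 ± 0.05, edgeR adjusted p = 0.0396). MPHOSPH8 did not pass (-0.03 ± 0.06). MORC2, a HUSH-associated ATPase, fell by 0.24 ± 0.05 (log2 fold change -0.24, adjusted p = 0.00227), and ATRX, a chromatin remodeller, rose by 0.18 ± 0.05 (0.0243). Whether these changes bear on the zinc finger genes was not tested.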

How the data were processed

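Per the labels' protocols, RNA was extracted with Trizol, mRNA was captured on beads and libraries were built for sequencing. The deposited table holds raw counts of reads per gene symbol, made by the authors with Trimmomatic 0.39, STAR and featureCounts on hg38 (GRCh38), per the submitters' processing notes, which also name DESeq2. Not given in the sources used here are the annotation, the strand setting and the handling of reads that match several genes. The column prefixes were read as vitamin C and control. Every row named a gene.

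The members and gene lists were chosen with earlier results of these data known. Values were given in every library for the called members, the 5 highest and 3 lowest tested members by CPM, the close copies, ZNF274, ZNF154 and ZNF671. Of the co-repressor genes, TRIM28, SETDB1 and the 6 called ones with the smallest p were named. Values for ZNF419, ZNF544, ZNF418, ZNF667, ZNF135, PPHLN1, MPHOSPH8 and the neighbours were picked after they were seen.

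Genes were filtered with filterByExpr by group, scaled with TMM factors (0.984 to 1.03) and compared by the two-sided quasi-likelihood test of edgeR 4.0.16 (robust glmQLFit, then glmQLFTest) under R 4.3.3, with group as the only term. The threshold was a Benjamini-Hochberg adjusted p of 0.05. SE is the absolute log2 fold change over the square root of F. The common biological coefficient of variation came to 4.60%. Libraries of a group differed beyond counting noise (chi-square per degree of freedom 3.89 to 7.22). On data simulated for ascorbic acid over control (15106 genes), the test recovered 62% of genes changed 1.2-fold, 98% at 1.5-fold and all at 2-fold and 3-fold, with 14 false calls of 194. All of the altered genes had at least 5 CPM.

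Positions and exon lengths came from GENCODE release 29 (26212 of 28278 symbols matched). Identities are from global alignments, over the longer sequence. Finger and KRAB patterns were C-X2-4-C-X12-H-X3-5-H and F-X-D-V-X3-F in translated coding sequences. Alternatives were DESeq2 1.42.0, limma-voom (limma 3.58.1), 3 other scalings, 2 other filters, a replicate block, thinning to the shallowest library, removal of GC and length trends (mgcv 1.9.3; 97.0% of tested genes and 100% of tested members had both values), each library left out and, chosen after seeing the data, halved counts and members with overlap or shared sequence left out. Values of some listed genes are not reported here.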

Additional observations from a re-analysis of the deposited data

How the results depend on the processing

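The count of 19q zinc finger genes called lower (7) was 4 with DESeq2, 4 with the filter of 5 CPM in 2 libraries, 4 with library totals alone and 4 with members that overlap or share sequence left out, and ran from 1 to 10 with each library left out. None was called higher in any setting run. Their median log2 fold change (-0.15) was -0.10 with library totals alone and -0.18 to -0.13 with each library left out. That of other ZNF rows (-0.03) was 0.0094 with library totals alone and -0.072 to -0.019 with each library left out. Over all tested genes, the 1303 higher calls were 806 with DESeq2 and 790 to 1279 with each library left out. The 879 lower calls were 1470 with GC and length trends removed, 542 with the 5 CPM filter, 389 with library totals alone and 335 to 768 with each library left out. Among other ZNF rows, the 15 higher calls were 6 with DESeq2, 23 with GC and length trends removed, 23 with library totals alone, 9 with the replicate block and 7 to 12 with each library left out. Their 22 lower calls were 33 with GC and length trends removed, 14 with the 5 CPM filter, 10 with library totals alone and 6 to 24 with each library left out. The cause of these shifts was not tested, except that fewer libraries and fewer genes enter some settings.

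With the replicate number as a block, 9 of the 19q genes were called lower and 0 higher (median -0.17), and over all genes 804 were called lower and 1076 higher. Over all tested genes, deviations from the group mean were hardly correlated between libraries sharing a number (r = 0.03 for number 1 and 0.01 for number 2). The deviations of the 2 treated libraries mirror each other, so the 2 values are not independent. They cannot show whether the numbers pair the libraries. With 2 treated libraries, a left-out treated library leaves 1, which is assumed to vary like the others. Low counts limit the 9 genes under 1 CPM, whose SE was 0.31 or more where tested.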
